A study of Mus musculus with 6 samples.

Results

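The data describe 9 genes of coagulation and fibrinolysis in mouse neutrophils, picked by their symbols from a table of 38739 genes: *F3* (tissue factor), *F5*, *F10*, *F13a1*, *Thbs1* (thrombospondin 1), *Thbd* (thrombomodulin), *Plaur* (the urokinase receptor), *Plat* (tissue plasminogen activator) and *Tfpi* (tissue factor pathway inhibitor). All 9 were in the table, and all 9 had a value above 0 in at least 1 of the 6 samples. The neutrophils came from the peritoneum of cGAS knockout (cGAS-/-) mice of the C57B/L6 strain, which lack cyclic GMP-AMP synthase, a cytosolic sensor of DNA, and the study's methods describe young adult males in which thioglycolate was injected to draw neutrophils into the peritoneum. The 3 untreated samples were kept for 2 h in medium alone, and the 3 LPS samples for 2 h with 500 ng/mL of LPS, an outer membrane component of Gram-negative bacteria, as the sample labels say, whereas the methods give a lower dose. Both groups lack cGAS and the table analysed here has no wild-type sample, so the comparison answers how LPS changed these genes in cGAS-/- cells only. The sources do not say whether the samples of a group came from separate mice, and the p values then measure only the spread between these samples, which may be technical.

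Coagulation starts when tissue factor on a cell surface binds factor VII, and this pair activates factor X. Activated factor X together with its cofactor, factor V, turns prothrombin into thrombin, thrombin cuts fibrinogen to fibrin, and factor XIII cross-links the fibrin. The pathway is held back by tissue factor pathway inhibitor and by thrombomodulin, which with the protein C receptor turns thrombin toward the activation of protein C. Fibrin is removed by plasmin, which tissue plasminogen activator and urokinase release from plasminogen, and the urokinase receptor holds urokinase on leukocytes. Bacterial LPS is a classical inducer of tissue factor in monocytes, and clotting in infected vessels involves neutrophils and the traps of DNA that they release.

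The deposited values are labelled normalized counts and were taken as scaled TPM, a relative measure per transcript length, divided by 1 factor per sample. This reading is an inference. Read numbers cannot be recovered from such values, and sequencing depth is therefore not known. The sum of the values was 603599 to 713384 untreated and 404675 to 465904 with LPS. Pseudogenes took 64.7 to 70.7% of that sum untreated and 32.3 to 40.5% with LPS, whereas protein-coding genes took 21.6 to 29.0% and 50.6 to 60.0%. *Cgas*, the deleted gene, was listed at 0.0286 to 0.307 scaled TPM over the 6 samples. Neutrophil markers were present in each sample (*S100a8* at 2086 to 19851 scaled TPM and *Csf3r* at 138 to 525). Of the markers of other cells, *Cd79a* of B cells was at 27.4 to 457, *C1qb* of macrophages at 0.712 to 23.9 and *Cpa3* of mast cells at 1.10 to 40.1, whereas *Tek* of endothelial cells and *Epx* of eosinophils were listed at 0 in all 6. Some other markers of these lists were above 0 in all 6, with *Pecam1* of endothelial cells at 0.445 to 5.94 and *Siglecf* of eosinophils at 0.0848 to 0.264. In such bulk samples, fewer cells of a type and less RNA per cell cannot be told apart.

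Promoter sequences from RefSeq (table build GRCm38.p6) were found for 6 of the 9 genes, in 8 windows. *Thbs1*, *Thbd* and *Plat* had no entry. Those of *F3*, *F5* and *Plaur* are shown here because *F3* and *F5* are the members with the clearest difference after LPS and because *F3* and *Plaur* are the members with a match to the AP-1 motif TGANTCA, the sequence bound by Fos and Jun proteins. Each runs 5′ to 3′ over the 250 bases before the RefSeq start of the gene, and capitals mark the motif.

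F3: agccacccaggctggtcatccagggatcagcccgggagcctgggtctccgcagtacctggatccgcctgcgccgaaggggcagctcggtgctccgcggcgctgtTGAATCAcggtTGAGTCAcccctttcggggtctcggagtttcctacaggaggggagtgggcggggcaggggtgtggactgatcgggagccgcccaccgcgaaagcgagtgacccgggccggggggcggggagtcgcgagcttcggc
Plaur: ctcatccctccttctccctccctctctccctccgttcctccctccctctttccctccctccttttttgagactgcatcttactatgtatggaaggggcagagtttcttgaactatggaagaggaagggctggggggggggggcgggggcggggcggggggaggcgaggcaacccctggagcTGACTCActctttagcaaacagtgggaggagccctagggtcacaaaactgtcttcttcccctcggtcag
F5: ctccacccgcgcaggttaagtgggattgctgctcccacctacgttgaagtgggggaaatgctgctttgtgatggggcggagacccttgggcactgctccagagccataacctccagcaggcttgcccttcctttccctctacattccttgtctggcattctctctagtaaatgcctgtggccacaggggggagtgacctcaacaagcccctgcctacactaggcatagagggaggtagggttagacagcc

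By exact match, the *F3* window is chr3:121516936-121517185, the *Plaur* window chr7:24161658-24161907 and the *F5* window chr1:163979154-163979403, all on the plus strand of GRCm39. The *F3* window lies inside the longer GENCODE M39 model of the gene, and the *Plaur* and *F5* models begin inside their windows. *F3* held the AP-1 motif at 2 positions, from -146 to -140 and from -135 to -129 counted from the start, and *Plaur* at 1 position, from -69 to -63. The motif, searched on both strands and counted once per position, occurs in 6.75% of 32851 RefSeq promoter windows of the same length. The TATA motif TATAAA, found in 12.4% of all windows, was in 1 of the 2 windows of *Tfpi*, on the opposite strand. The 10-base NF-κB consensus, found in 3.9% of all windows, was in none of the 8 windows, which says only that these letters are not there.

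Levels of the 9 genes covered a wide range, down to values listed at 0. *Thbs1*, which encodes a matrix glycoprotein that platelets and macrophages secrete, was the highest in both groups, with 327 ± 93.5 scaled TPM untreated and 493 ± 97.6 with LPS (SD, n = 3). It took 69.1% and 67.4% of the summed value of the 9 genes, and ranked 68 of 15623 protein-coding genes in each group. *F10*, the zymogen of factor Xa, came next with 108 ± 68.5 and 198 ± 90.6 (SD, n = 3), and *Plaur* was the next with 28.7 ± 19.4 and 32.7 ± 4.01 (SD, n = 3). In both groups the samples of *Thbs1* lay above those of *F10*, and those of *F10* above those of *Plaur*. Below *Plaur*, no pair of neighbours in the untreated order (*Thbd*, *F13a1*, *Plat*, *F5*, *F3* and *Tfpi*) had samples that were apart. After LPS the order was *F5*, *F3*, *F13a1*, *Thbd*, *Plat* and *Tfpi*, in which *F5* lay above *F3* and *Plat* above *Tfpi* in all samples, and the neighbours between them overlapped. Because the deposited values may be averages over the annotated transcripts of a gene, which number from 2 for *F5* to 43 for *Tfpi* in GENCODE M39, a gene with many silent transcripts would stand lower in this order than its summed transcripts would.

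**Figure D1:**
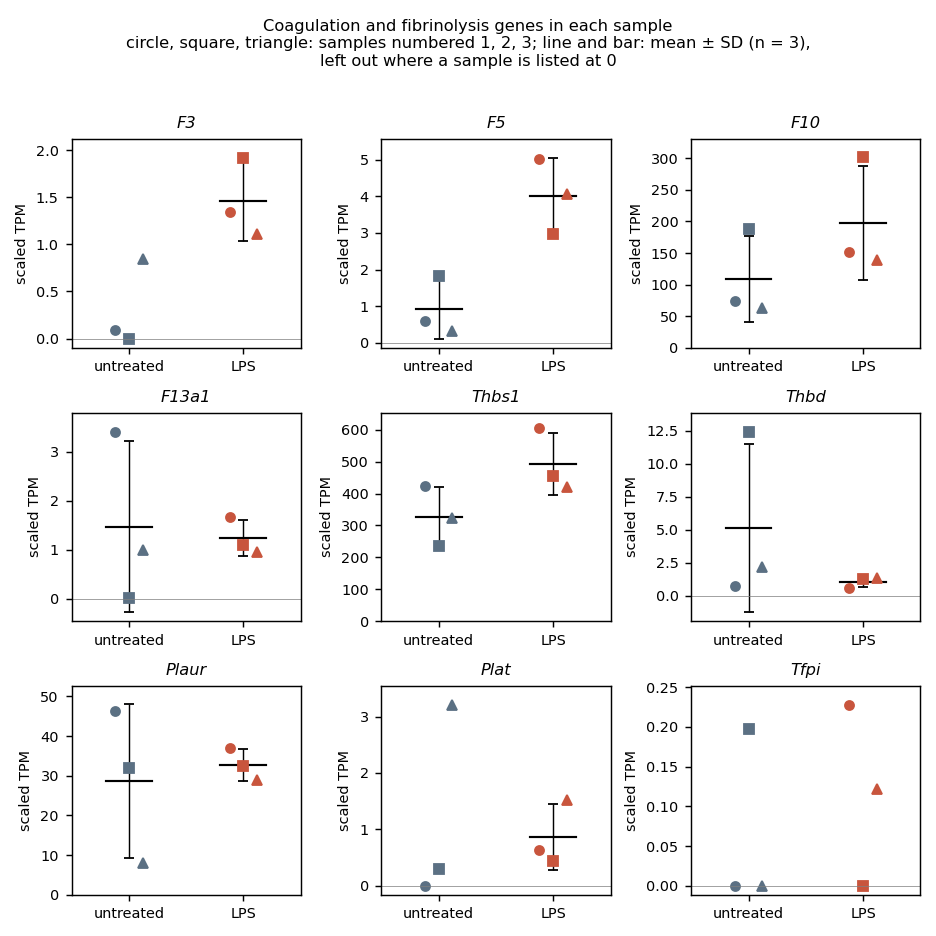
Scaled TPM of the 9 genes (vertical axes, linear) in the untreated and LPS samples, with each sample as a point whose shape gives its number and the mean ± SD (n = 3) as a line and bar, left out where a sample is listed at 0. For *F3* and *F5* the 3 LPS samples lie above the 3 untreated ones, and for the other 7 genes the groups overlap.

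For each gene the groups were compared with limma on log2(scaled TPM + 1), a scale that understates the change of low values. A gene was called at an unadjusted p under 0.01 with a log2 fold change of more than 2. These are the limits of the study, which applied them to normalized read counts. None of the 9 genes was called: 0 were higher, where 1.69% of the 23049 genes tested were called higher, and 0 were lower, where 1.31% were called lower. On this scale a gene with a mean value under 1 cannot reach a log2 fold change of 2, so *F3* and *Tfpi* could not be called. All 389 genes called higher and 301 called lower were among the 9403 with a mean value of at least 1. At an adjusted p under 0.05, 0 of the 9 genes were likewise higher (0.894% of all genes) and 0 lower (0.946%). An unadjusted p under 0.05 was reached by 2 genes, *F3* and *F5*, both toward higher values (10.3% of all genes), and by 0 toward lower values (6.66%). The LPS samples lay above all untreated samples in the same 2 genes (13.1% of all genes) and below them in 0 (9.75%). Among genes with a mean value of at least 1, which include *F5* but not *F3*, 19.1% lay apart toward higher and 15.2% toward lower values. With a log2 fold limit of 1, 0 of the 9 genes were called higher (3.62% of all genes) or lower (2.92%). With the replicate number as a block, 0 reached an adjusted p under 0.05 in either direction (0.00434% and 0.0651%). The log2 fold change was above 0 in 8 of the 9 genes, of which *F13a1*, *Plat* and *Tfpi* turned below 0 under other scalings, and its median was 0.48, or 0.28 with centring on the median and 0.057 with scaling to the protein-coding total. The corresponding median was 0.013 over all genes tested and 0.37 over the 6004 protein-coding genes with a mean value of at least 1.

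*F5*, on chromosome 1 (163979289 to 164047846, GRCm39), encodes the cofactor that speeds up thrombin formation by factor Xa. Its values were 0.591, 1.82 and 0.331 scaled TPM untreated and 5.02, 2.98 and 4.05 with LPS. Every LPS sample was above every untreated sample, and the untreated sample closest to them was number 2. The log2 fold change of 1.45 (standard error 0.40, 95% interval 0.46 to 2.43) was the largest of the 9 genes at a pseudocount of 1, whereas with a pseudocount of 0.1 it was 2.28 and below that of *F3*. The limma adjusted p of *F5* was 0.138, and over the alternatives it ran from 0.0715 to 0.367. *Gm16548*, a non-coding RNA gene on the opposite strand that shares a near-identical stretch with *F5*, was listed at 0 untreated and 0.149 to 0.324 with LPS. *Gm16588*, a processed pseudogene within *F5* on the same strand, was listed at 4.94, 0 and 1.34 untreated and at 5.05, 0 and 7.59 with LPS. The libraries were made with a strand-specific kit, but the strand setting of the quantification is not given in the sources used here.

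*F3*, on chromosome 3 (121516610 to 121528820), encodes the transmembrane receptor that starts coagulation. It was listed at 0.0901, 0 and 0.841 scaled TPM untreated and at 1.34, 1.92 and 1.10 with LPS. The groups did not overlap, although untreated sample 3 came close to LPS sample 3. On the log2(scaled TPM + 1) scale the log2 fold change was 0.95 (standard error 0.36, 95% interval 0.073 to 1.82, limma adjusted p = 0.255). It was 2.54 with a pseudocount of 0.1 in place of 1 (limma adjusted p = 0.247), so the size of the change of this low gene depends on the pseudocount. *Gm43823*, which overlaps *F3* on the opposite strand and shares a near-identical stretch with it, was listed at 0, 0 and 0.450 untreated and 0.242 to 0.455 with LPS.

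Among the clotting factors with high values, *F10* on chromosome 8 (13087293 to 13106676) was at 74.6, 187 and 63.5 scaled TPM untreated and 151, 302 and 140 with LPS. Sample 2 stood highest in each group, and untreated sample 2 was above LPS samples 1 and 3, so that the groups overlapped. The log2 fold change of 0.94 (standard error 0.54, 95% interval -0.38 to 2.26) was within the spread between samples, taken without regard to their numbers (limma adjusted p = 0.437). Each LPS sample of *F10* was above the untreated sample of its own number, at ratios of 2.03, 1.61 and 2.2. With the replicate number as a block, the standard error was 0.24 (limma adjusted p = 0.218). Without untreated sample 2 the log2 fold change was 1.42, without LPS sample 2 it was 0.59, and with each sample scaled to the same protein-coding total it was 0.45. Without both samples numbered 2, the remaining LPS samples were above the untreated ones, with a log2 fold change of 1.07 (standard error 0.18, limma adjusted p = 0.110). *F7*, which encodes the partner of tissue factor, is the neighbour of *F10* on the same strand, with 1483 bases and 0 annotated genes between them. It was chosen after its values were seen, and was at 6.59, 8.52 and 4.20 untreated and 11.4, 20.3 and 16.1 with LPS. All LPS samples of *F7* were above all untreated ones, with a log2 fold change of 1.197 (standard error 0.38, limma adjusted p = 0.177).

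*F13a1*, on chromosome 13 (37051152 to 37234277), encodes the catalytic subunit of factor XIII, which cross-links fibrin and is known from platelets and macrophages. Its values were 3.41, 0.0165 and 0.988 scaled TPM untreated and 1.66, 1.10 and 0.953 with LPS. The untreated samples spread to both sides of the LPS samples, and the log2 fold change of 0.097 (standard error 0.58, limma adjusted p = 0.939) became -0.42 without untreated sample 2.

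*Thbs1*, on chromosome 2 (117941974 to 117957616), was at 423, 236 and 322 scaled TPM untreated and 604, 456 and 420 with LPS. LPS sample 3 was just below untreated sample 1, and the other LPS samples were above all untreated ones. The log2 fold change of 0.61 (standard error 0.33, 95% interval -0.20 to 1.43, limma adjusted p = 0.411) was 0.40 without untreated sample 2 and 0.12 with each sample scaled to the same protein-coding total. With the replicate number as a block, the standard error for *Thbs1* was 0.23 (limma adjusted p = 0.333). The overlapping non-coding gene *Gm13986*, which shares a near-identical stretch with *Thbs1*, was at 0.243 to 0.596 over the 6 samples. Of 3 other thrombospondin and receptor genes tested, 0 were called, and 1 had a mean value of at least 1. *Cd36*, which encodes a receptor for thrombospondin 1, was at 0.320 to 11.9 scaled TPM untreated and 2.34 to 3.67 with LPS.

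*Thbd*, on chromosome 2 (148216045 to 148250201), encodes the thrombin receptor that starts the protein C pathway and was the member with a log2 fold change below 0. It was at 0.752, 12.4 and 2.19 scaled TPM untreated and 0.604, 1.24 and 1.32 with LPS. Untreated sample 2 stood far above the other 5 samples, which lay between 0.604 and 2.19. The log2 fold change was -1.06 (standard error 0.77, limma adjusted p = 0.551), and -0.22 without untreated sample 2. *Sstr4*, a gene for a somatostatin receptor that overlaps the annotated *Thbd* model on the opposite strand, was also highest in untreated sample 2, with 3.36, 7.11 and 0 scaled TPM untreated and 0.322, 2.12 and 0.322 with LPS. Whether reads of the pair were told apart was not tested. *Tfpi*, on chromosome 2 (84263195 to 84307164), which inhibits factor Xa and the complex of tissue factor with factor VII, was listed at 0, 0.198 and 0 untreated and 0.227, 0 and 0.122 with LPS, values too low to show a direction.

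The fibrinolysis genes showed no difference beyond the spread between samples. *Plaur*, on chromosome 7 (24161875 to 24175394), was at 46.3, 31.8 and 7.94 scaled TPM untreated and 36.9, 32.5 and 28.8 with LPS. The LPS samples were close to each other and lay within the range of the untreated ones. Its log2 fold change of 0.48 (standard error 0.65, 95% interval -1.09 to 2.06, limma adjusted p = 0.693) turned to -0.23 without untreated sample 3. *Plat*, on chromosome 8 (23247709 to 23272871), was listed at 0, 0.305 and 3.20 untreated and 0.634, 0.435 and 1.52 with LPS. Its log2 fold change of 0.036 (standard error 0.61, limma adjusted p = 0.980) was below 0 with quantile normalization, with centring on the median and with scaling to the protein-coding total.

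**Figure D2:**
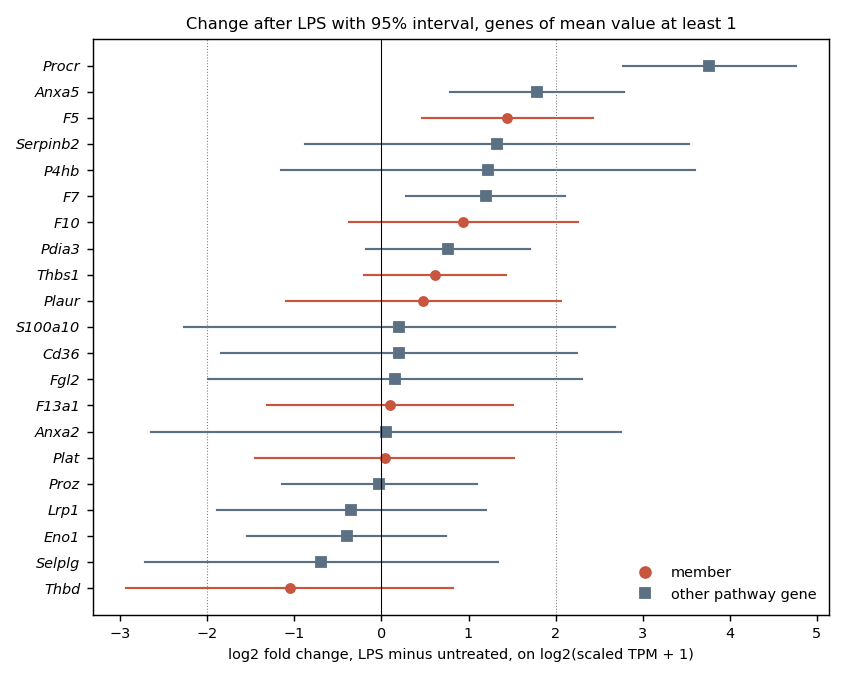
Log2 fold change of LPS minus untreated on log2(scaled TPM + 1) (horizontal axis) with its 95% interval from limma (line) for members (circles) and other genes of the pathway (squares) whose mean value was at least 1, with the limits of -2 and 2 dotted. *Procr* is the gene whose change passes the limit, Among the 7 members shown, *F5* is the highest at 1.45 and *Thbd* the lowest at -1.06. *F3* has a mean under 1 and is not drawn, and with a pseudocount of 0.1 its change of 2.54 is above the 2.28 of *F5*.

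Of 61 other genes of the pathway, 41 were in the table and 39 were tested. Among these 1 was called higher, *Procr*, and 0 were called lower (1.69% and 1.31% of all genes), with 8 and 0 at an unadjusted p under 0.05 (10.3% and 6.66% of all genes). Their median log2 fold change was 0.11, and the LPS samples lay above all untreated samples in 12 and below them in 1 (13.1% and 9.75% of all genes). Of the 39, 14 had a mean value of at least 1, and the others could not pass the fold limit at a pseudocount of 1. The absence of a call therefore says nothing about those low genes. *Procr*, on chromosome 2 (155593031 to 155597397), encodes the endothelial protein C receptor, which presents protein C to thrombin bound to thrombomodulin. It was at 1.11, 0.277 and 0.206 scaled TPM untreated and 27.8, 18.7 and 13.4 with LPS. All LPS samples were far above all untreated samples, with means of 0.533 ± 0.505 and 20.0 ± 7.29 (SD, n = 3). *Procr* rose with a log2 fold change of 3.77 (standard error 0.41, 95% interval 2.77 to 4.76, limma adjusted p = 0.0194). It was called in each alternative, whereas its adjusted p was 0.0582 without untreated sample 3, 0.0904, 0.0528 and 0.0791 without LPS samples 1, 2 and 3, and 0.102 without both samples numbered 2.

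By role, the log2 fold change of the 12 other clotting factors and genes of their synthesis ran from 0.00022 to 1.197, with 0 called. Only 2 of the 12 had a mean value of at least 1, and the others could not be called. Most of the 12 were near 0 scaled TPM, and *Fga*, *Fgb* and *Fgg*, the fibrinogen chains made by the liver, were at most 0.785. *Vkorc1*, which recycles vitamin K for the carboxylation of clotting factors, was listed at 0, 0.197 and 0 untreated and 0.575, 0.886 and 1.17 with LPS (log2 fold change 0.81, limma adjusted p = 0.115). Of the 8 inhibitors of coagulation tested, 4 were above 0 and 4 below. *Anxa5*, which encodes annexin A5, a protein that covers phosphatidylserine, was chosen after its values were seen, and was at 11.3, 5.195 and 13.3 untreated and 41.2, 35.4 and 27.98 with LPS. All LPS samples of *Anxa5* were above the untreated ones, with a log2 fold change of 1.79 (standard error 0.41, limma adjusted p = 0.0935). The 1 protease-activated receptor gene in the table, *F2rl3*, had no value above 0 untreated and at most 0.101 with LPS. *Vkorc1*, *F2rl3*, *Cd36* and the fibrinogen chains were also chosen after their values were seen.

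**Figure D3:**
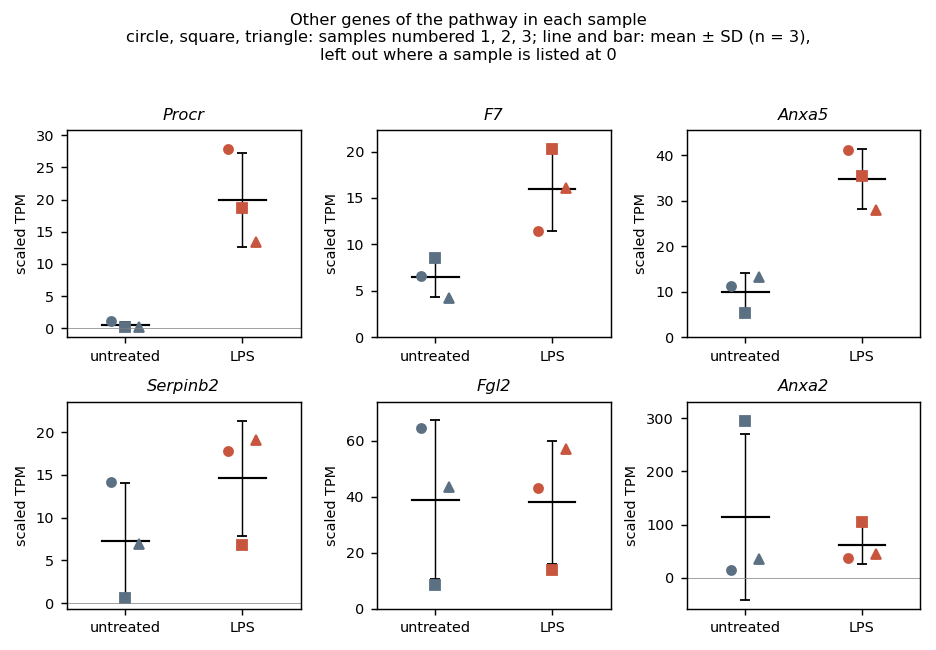
Scaled TPM of 6 other genes of the pathway (vertical axes, linear) in the untreated and LPS samples, with each sample as a point whose shape gives its number and the mean ± SD (n = 3) as a line and bar. The LPS samples of *Procr*, *F7* and *Anxa5* lie above all untreated samples, and in *Serpinb2*, *Fgl2* and *Anxa2* the groups overlap.

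Of the 10 other genes of fibrinolysis, 7 were above 0 and 3 below, and 0 were called, where 5 had a mean value of at least 1. *Anxa2*, which encodes an annexin that binds plasminogen and its activator, was at 14.9, 295 and 34.4 scaled TPM untreated and 38.0, 104 and 44.2 with LPS, with sample 2 the highest of each group (log2 fold change 0.050, standard error 1.11, limma adjusted p = 0.985). Of the 5 genes linked to the exposure of tissue factor and phosphatidylserine, 4 were above 0 and 1 below, and 0 were called, where 3 had a mean value of at least 1. Of the 5, *Selplg*, which encodes the P-selectin ligand of leukocytes, was likewise highest in the samples numbered 2, at 37.7, 236 and 71.8 untreated and 27.4, 120 and 45.0 with LPS (log2 fold change -0.69, limma adjusted p = 0.660). *P4hb*, a protein disulfide isomerase linked to tissue factor activation, was at 74.0, 3.96 and 31.9 untreated and 59.6, 47.3 and 51.9 with LPS (log2 fold change 1.22, limma adjusted p = 0.551). Of the clotting factors, *Fgl2*, a prothrombinase of macrophages, was lowest in the samples numbered 2, at 64.8, 8.50 and 43.7 untreated and 43.2, 13.96 and 57.1 with LPS (log2 fold change 0.15, limma adjusted p = 0.936). *Serpinb2*, an inhibitor of urokinase chosen after its values were seen, was at 14.2, 0.563 and 6.88 untreated and at 17.8, 6.86 and 19.1 with LPS (log2 fold change 1.33, limma adjusted p = 0.525). *Anxa5*, *Selplg*, *P4hb* and *Serpinb2* share near-identical stretches with other annotated genes, so reads may have been split between them. None of these 5 genes (*Anxa2*, *Selplg*, *P4hb*, *Fgl2* and *Serpinb2*) differed between the groups by more than the spread between samples, taken without regard to their numbers. Each LPS sample of *Selplg* was below, and each of *Serpinb2* above, the untreated sample of its own number. *Anxa2*, *P4hb* and *Fgl2* went both ways. With the replicate number as a block, the standard error was 0.27 for *Selplg* (limma adjusted p = 0.349) and 0.50 for *Serpinb2* (limma adjusted p = 0.3435).

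The samples numbered 2 stood apart from the others of their group in genes of cell types. The 12 neutrophil markers summed to 28451 scaled TPM in untreated sample 2, against 9899 and 9661 in samples 1 and 3, and to 54625 in LPS sample 2, against 18224 and 16037. *S100a8* and *S100a9* made up most of these sums, with 8405 and 16151 in untreated sample 2. Not every marker of the list followed the sum, as *Camp* was lowest in untreated sample 2 (1.16, against 24.1 and 9.18) and *Csf3r* was highest in untreated sample 3 (525, against 251 and 345). Between the groups, 1 of the 12, *Cxcr2*, was called lower with LPS (1.31% of all genes) and 0 higher (1.69%). Its log2 fold change was -2.67 (limma adjusted p = 0.0945). *Cxcr2*, *Csf3r* and *Ltf* lay apart toward lower values (9.75% of all genes), and 0 toward higher values (13.1%). The 5 B cell markers summed to 142 in untreated sample 2, against 550 and 407, and to 67.3 in LPS sample 2, against 237 and 225. The untreated contrast rested mainly on *Cd79a*, at 457, 27.4 and 187. In that group *Cd79b* (61.3, 111 and 175) and *Pax5* (0.608, 1.01 and 1.93) were lowest in sample 1 instead. *F10* was highest, as were *Anxa2* and *Selplg*, in the samples in which the sum of the neutrophil markers was highest. The 16 macrophage and monocyte markers summed to 180 to 234 untreated and 308 to 430 with LPS, of which *Cd68*, also present in neutrophils, took 157 to 179 and 230 to 381. Of these 16, 1 was called higher, *C1qb*, and 0 lower (1.69% and 1.31% of all genes). *C1qb* was at 2.85, 0.712 and 4.75 untreated and 23.9, 17.3 and 18.0 with LPS (log2 fold change 2.615, limma adjusted p = 0.0642). *C1qb*, *Cd5l* and *Cd68* lay apart toward higher values, and *Mrc1*, *Ccr2* and *Cx3cr1* toward lower values (13.1% and 9.75% of all genes). Of the 10 megakaryocyte and platelet markers in the table, which matter for *Thbs1*, *F5* and *F13a1*, the sum was 3.92 to 10.3 untreated and 13.2 to 45.0 with LPS, while *Gp9* was listed at 0 in all but LPS sample 3. The 8 endothelial markers summed to 2.27 to 7.54 and 4.54 to 6.22. The part of these cell types in the results was not tested. Without both samples numbered 2, which leaves samples 1 and 3 of each group, again 0 of the 9 genes were called. Of all 23049 genes tested, 421 were called higher and 334 lower in that setting. So few samples cannot show that the 9 genes do not change.

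**Figure D4:**
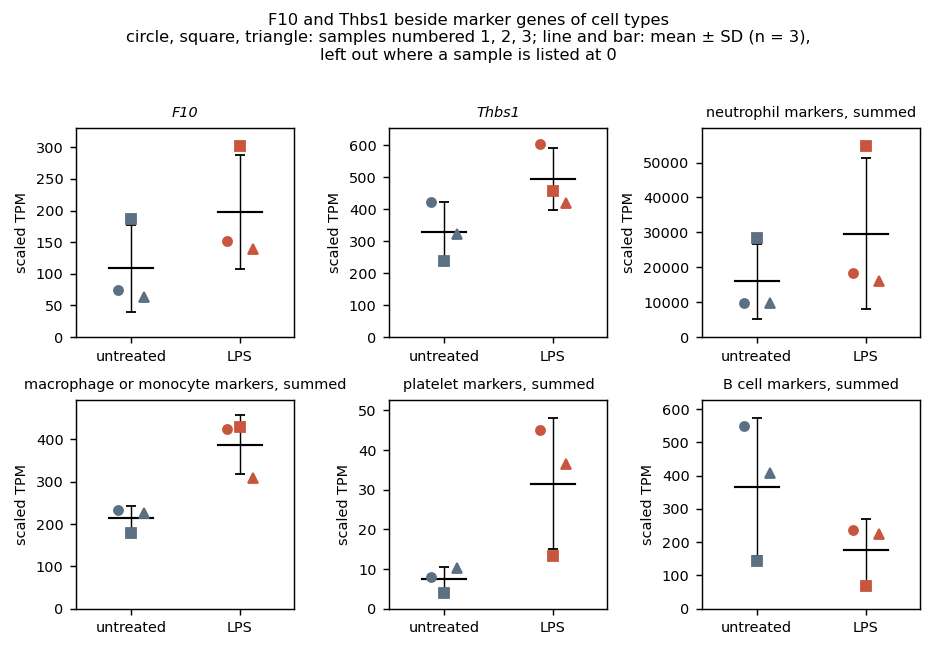
Scaled TPM of *F10* and *Thbs1* and the summed scaled TPM of 4 lists of cell type markers (vertical axes, linear) in the untreated and LPS samples, with each sample as a point whose shape gives its number and the mean ± SD (n = 3) as a line and bar. The squares, sample 2 of each group, are highest for *F10* and the summed neutrophil markers and lowest for the summed B cell markers.

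The profiles most like those of the members with the largest rise and fall at a pseudocount of 1 were sought among protein-coding genes with a mean value of at least 1, by Pearson's r over the 6 samples of log2(scaled TPM + 1), which share the libraries and their scaling. For *F5* these were *Rbm15* (r = 0.994), *Ccnyl1* (r = 0.993) and *Casp1* (r = 0.992). *Casp1*, which encodes the inflammatory caspase, was at 7.99, 12.97 and 7.46 scaled TPM untreated and 20.1, 17.6 and 19.5 with LPS, again with untreated sample 2 nearest to the LPS samples. For *Thbd* these were *Zbtb39* (r = 0.987), *Sass6* (r = 0.985) and *Tm6sf1* (r = 0.982). *Zbtb39* was at 2.45, 19.5 and 6.33 untreated and 3.11, 3.66 and 3.61 with LPS, and like *Thbd* it was highest in untreated sample 2. How far its likeness to *Thbd* depends on that sample was not tested.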

How the data were processed

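RNA sequencing values of neutrophils from cGAS-/- mice were analysed, 3 untreated and 3 LPS samples, grouped by their titles. Per the methods of the study, the authors used STAR with GRCm39 for alignment, Kallisto for transcript abundance and edgeR for normalization. The submitters' processing notes also name fastp and mm10, and the annotation release is not given in the sources used here. The deposited values, labelled normalized counts, were taken as TPM, divided by 1 factor per sample. Of 3141 values of untreated sample 3, 74.1% ended within 7 decimals and a further 22.3% did so only after multiplication by a whole number up to 40, as averages over transcripts would. Read counts and depth cannot be recovered, so no counting error is given, and no test on counts was run.

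Leaving out 15690 genes that were 0 throughout, 23049 genes entered limma 3.58.1, run in R 4.3.3 (lmFit, eBayes with a trend, two-sided) on log2(value + 1), with Benjamini-Hochberg adjustment over all of them. Genes were matched by name or identifier to GENCODE M39 (36582), otherwise by symbol to RefSeq for the type alone (1775), and 382 had no match. Near-identical stretches (95% over at least 150 bases) were found with blastn 2.17.0. The members and lists were chosen with earlier results of these data known. Named genes were the 9 members, other pathway genes that were called (up to 4 in each direction), the 4 uncalled ones with the highest mean value, and the 3 genes most like the members with the largest rise and fall. All other genes named with values (further pathway genes, markers and overlapping genes) were chosen after the values were seen. Alternatives were pseudocounts of 0.1 and 5, a filter on a mean of 1, other scalings, no trend, other call limits, a replicate block and leaving out each sample, and, after seeing the data, leaving out both samples numbered 2 and the block with a pseudocount of 0.1. The fit was tested on simulated data. Python 3.11.15, pandas 2.3.3 and matplotlib 3.10.9 were also used.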

Additional observations from a re-analysis of the deposited data

How the results depend on the processing

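Of the 9 members, 0 were called higher and 0 lower under each alternative, of which the filter on a mean of 1 tested 7 and left out *F3* and *Tfpi*. Over all genes, 389 were called higher and 301 lower, against 856 and 493 with a pseudocount of 0.1, 129 and 168 with a pseudocount of 5, 218 and 514 with scaling to the protein-coding total, and 834 and 673 with a log2 fold limit of 1. An adjusted p under 0.05 gave 206 higher, and leaving out a sample gave 238 (without LPS sample 3) to 434 higher and 241 to 375 lower. Centring on the median and scaling to the protein-coding total moved the median log2 fold change of 11073 genes above 0 in all samples by -0.20 and -0.16. Of the other pathway genes 1 was called higher, and 2 with a pseudocount of 0.1 (*Vkorc1* added), with a log2 fold limit of 1 (*Anxa5* added) and without untreated sample 3 (*Anxa5* added), a range of 1 to 2 as each sample was left out.

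The direction of low or widely spread genes turned. With a pseudocount of 5 the log2 fold change was -0.021 for *F13a1*, -0.041 for *Plat* and -0.0097 for *Anxa2*. With centring on the median it was -0.11 for *F13a1*, -0.17 for *Plat*, -0.14 for *Tfpi*, -0.15 for *Anxa2* and -0.048 for *Fgl2*. With scaling to the protein-coding total it was -0.18 for *F13a1*, -0.15 for *Plat*, -0.43 for *Anxa2* and -0.32 for *Fgl2*. With quantile normalization it was -0.046 for *Plat* and -0.0062 for *Tfpi*. As each sample was left out, it ran from -0.42 to 0.64 for *F13a1*, -0.23 to 0.97 for *Plaur*, -0.37 to 0.66 for *Plat*, -0.0038 to 0.15 for *Tfpi* (0.23 without both samples numbered 2), -1.28 to 0.027 for *Selplg*, -0.84 to 1.26 for *Anxa2* and -0.68 to 0.74 for *Fgl2*. Without both samples numbered 2 it was -0.38 for *F13a1*, -0.014 for *Plat* and -0.097 for *Fgl2*. The cause was not tested. *F3*, *F5*, *F10*, *Thbs1*, *Thbd*, *Procr*, *F7* and *Anxa5* kept their direction under each alternative run on them (for *F3*, all but the filter on a mean of 1).

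Samples with the same number deviated together by r = 0.0935, 0.199 and 0.0835 over 23049 genes, and each sample was most like the one with its own number. These r are low, but they cover many genes near 0, so they do not settle whether the samples are pairs. Among the members, the block raised the standard error of *F3*, *F5* and *Tfpi* and lowered that of the others, from 0.54 to 0.24 for *F10*. With the replicate block, 387 genes were called higher and 303 lower, and with the block and a pseudocount of 0.1, 644 higher. At an adjusted p under 0.05, the block left 1 gene higher and 15 lower, and *Procr* had an adjusted p of 0.0802. The block changed no call of the members. TPM keeps no depth, so low values such as those of *F3*, *Plat* and *Tfpi* have no known counting error.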

Other observations

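Of 10 genes known from megakaryocytes and platelets, 9 had a log2 fold change above 0 and 1, *Itga2b*, below 0, and 1, *Tubb1*, was called higher. *Tubb1*, the beta-tubulin of platelets, had values of 0, 1.55 and 0 scaled TPM untreated and 10.6, 6.99 and 7.03 with LPS (log2 fold change 2.73, limma adjusted p = 0.0533). *Clec1b*, a platelet receptor, was listed at 0, 0 and 0.0180 and at 0.581, 0.312 and 0.456 (log2 fold change 0.52, limma adjusted p = 0.0672). *Pf4*, a platelet chemokine, was at 6.32, 0.769 and 7.74 and at 30.4, 4.17 and 25.5, with sample 2 lowest in both groups. *Itga2b*, the platelet integrin, was at 0.760 to 1.11 untreated and 0.0930 to 0.350 with LPS (log2 fold change -0.67, limma adjusted p = 0.207). These 4 genes were chosen after their values were seen.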
